A study of Homo sapiens with 8 samples.

Results

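The genes described here encode products of intestinal secretory cells, namely the trefoil peptides TFF1, TFF2 and TFF3, the lectin-like protein REG4, the mucins MUC1, MUC2 and MUC13, the protease inhibitor SPINK4 and the disulfide isomerase AGR2, together with the brush border protein villin (VIL1). All probe sets that the platform annotation assigns to exactly 1 of these 10 gene symbols were taken, which gave 19 of 54613 probe sets (control probe sets aside), and 10 of 19775 named genes. Of these, 13 probe sets of 9 genes were bright enough to be tested and 6 were too dim to judge. The arrays (Affymetrix HG-U133 Plus 2.0) compared DKS-5 cells, a colon cancer line labelled K-ras mutant, after 12 h at 1% O2 (hypoxia) and at 21% O2 (normoxia), with DKO-3 cells, a colon cancer line labelled K-ras knockout (wild-type), under the same 2 oxygen levels. Each of the 4 groups had 2 arrays. Every genotype is represented by 1 line, so the genotype and other differences between the lines cannot be told apart, and the deposited design says that each condition was repeated for a second sample without saying whether from a separate culture. If it was not, the p-values measure spread that may be technical only. Precision throughout is limited by having 2 arrays in a group.

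Goblet cells of the intestine fill their granules with gel-forming mucin, above all MUC2 in the colon, and release it with trefoil peptides, small disulfide-rich proteins that protect and help repair the mucosa. Folding of these cysteine-rich products takes place in the endoplasmic reticulum, where AGR2 acts, and in the mouse intestine AGR2 is needed to make Muc2. MUC1 and MUC13 are mucins anchored in the cell membrane, and villin bundles the actin of the microvilli that line the surface of absorptive cells. Colon cancers keep such programmes to different degrees, and TFF1 and TFF2, best known from the stomach, can be made by intestinal tumours.

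A signal below is the deposited MAS5 value, a linear brightness per probe set, after each array was brought to the same 2% trimmed mean of 172.1. Before this the trimmed mean ran from 132.5 to 201. Differences are in log2(signal + 16), with the SE, so that fold changes understate those of dim probe sets. Probe sets with a mean log2 value, over the 8 arrays, past the 40th percentile, which is a signal of about 13.8, were tested with limma, and a call means a Benjamini-Hochberg adjusted p under 0.05 over 32768 probe sets. The colon epithelial identity of the lines was checked on 11 markers. EPCAM was between 6704 and 7752 in DKS-5 and between 5316 and 6244 in DKO-3, and CDH17 was between 1777 and 2783 in DKS-5 and between 1922 and 2344 in DKO-3, whereas GPA33, CEACAM5 and PIGR were too dim. KRT20, also on this list, went against it in DKS-5, where its mean of 9.55 lay below the filter level. It was far brighter in DKO-3, as described below. Of 14 markers of blood, vessel and connective tissue cells on the array, 11 were too dim, and their summed signal was 144 to 201 in DKS-5 and 107 to 170 in DKO-3. The 3' to 5' signal ratio of the ACTB control probe sets, a measure of RNA quality, differed between the groups. It was 54.8 and 25.6 in DKS-5 hypoxia, 55.1 and 34.3 in DKS-5 normoxia, 11.47 and 11.02 in DKO-3 hypoxia, and 49.0 and 14.9 in DKO-3 normoxia. Whether it contributes to the differences below was examined only by a fit with this ratio as a covariate, whose values are given beside the calls it ended.

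The 3 promoter windows that follow belong to REG4, SPINK4 and AGR2, the genes lower in DKS-5 for which RefSeq (GRCh38.p14) sequence was used here. Each is the 250 bases before the annotated start, on the gene's strand, at chr1:119811461-119811710 (minus strand), chr9:33239917-33240166 (plus strand) and chr7:16805000-16805249 (minus strand). Capitals mark the hypoxia-response cores ACGTG and GCGTG, the GATA-type motif AGATAA and the TATA-type motif TATAAA, each searched on both strands. The sequences are those of the reference genome, not of the cell lines.
REG4: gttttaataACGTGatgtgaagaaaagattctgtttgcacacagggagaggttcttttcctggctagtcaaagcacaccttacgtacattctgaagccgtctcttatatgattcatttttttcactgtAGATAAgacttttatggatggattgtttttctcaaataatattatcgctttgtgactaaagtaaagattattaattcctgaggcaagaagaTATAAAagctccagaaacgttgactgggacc
SPINK4: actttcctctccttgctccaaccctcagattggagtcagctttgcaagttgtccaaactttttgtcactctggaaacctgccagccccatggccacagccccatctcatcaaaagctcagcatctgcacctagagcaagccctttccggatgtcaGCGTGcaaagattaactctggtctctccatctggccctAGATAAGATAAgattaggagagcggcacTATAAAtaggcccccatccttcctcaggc
AGR2: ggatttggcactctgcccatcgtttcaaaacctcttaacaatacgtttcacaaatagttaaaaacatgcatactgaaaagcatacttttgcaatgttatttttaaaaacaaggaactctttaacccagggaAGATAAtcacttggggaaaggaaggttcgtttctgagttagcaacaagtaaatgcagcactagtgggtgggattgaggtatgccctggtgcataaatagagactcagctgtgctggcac
The AGATAA motif occurred in REG4 (its first letter 122 bases before the start), in AGR2 (119 bases) and in a pair of overlapping copies in SPINK4 (57 and 52 bases), and it is found in 9.17% of 35116 promoter windows of this length. REG4 and SPINK4 also held TATAAA, 31 and 29 bases before the start, a motif in 10.7% of windows. ACGTG occurred in REG4 and GCGTG in SPINK4, whereas AGR2 held neither, and these cores are found in 18.5% and 32.2% of windows. Of the 10 genes, 6 had an entry in the promoter table, and the motifs were chosen with the expression values known. Among these 6, TATAAA also occurred in MUC1, which was not called between the lines. A match describes the letters only and says nothing of whether a factor binds there.

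The first question was whether the K-ras mutant and wild-type lines differ in these genes. TFF1, TFF2, REG4, SPINK4 and AGR2 were lower in DKS-5 than in DKO-3 in at least 1 comparison and villin was higher, while TFF3, MUC1 and MUC13 were not called. With the RNA quality covariate only VIL1 228912_at and TFF2, which is set aside below, kept a call over both oxygen levels. No member probe set kept a call in hypoxia in that fit. In normoxia 2 of the 13 probe sets were called lower (TFF2 and REG4) and 2 higher (both of VIL1), where 0.8% and 0.354% of all probe sets tested were. In hypoxia 3 were called lower (TFF2, REG4 and SPINK4) and 2 higher (both of VIL1), against 1.51% and 0.574% of all probe sets. Over both oxygen levels, a comparison of 4 arrays with 4 that shares its arrays with the others, 5 were called lower (TFF1, TFF2, REG4, SPINK4 and 1 probe set of AGR2) and 2 higher (both of VIL1), against 3.97% and 1.74%. Of the called probe sets, TFF2 and VIL1 1554945_x_at had a mean below the filter level in the line where they were lower, so they could be tested only if they differed and are given as a description. Leaving them aside, 1 was lower and 2 higher in normoxia, 2 lower and 1 higher in hypoxia, and 4 lower and 2 higher over both oxygen levels. The 1 higher in hypoxia, VIL1 228912_at, averaged 13.59 in DKO-3 hypoxia, just under the filter level, though 15.46 over all 4 DKO-3 arrays. Without overlap between the 4 DKS-5 and the 4 DKO-3 arrays, 4 probe sets were lower and 2 higher (both of VIL1), as were 7.37% and 4.55% of all probe sets. The lower ones were TFF1, REG4, SPINK4 and also TFF2, which is set aside above and adds no support to this count. The median difference of the 13 probe sets over both oxygen levels, TFF2 and VIL1 1554945_x_at included, was -0.52, beside -0.02 for all probe sets tested.

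**Figure D1:**
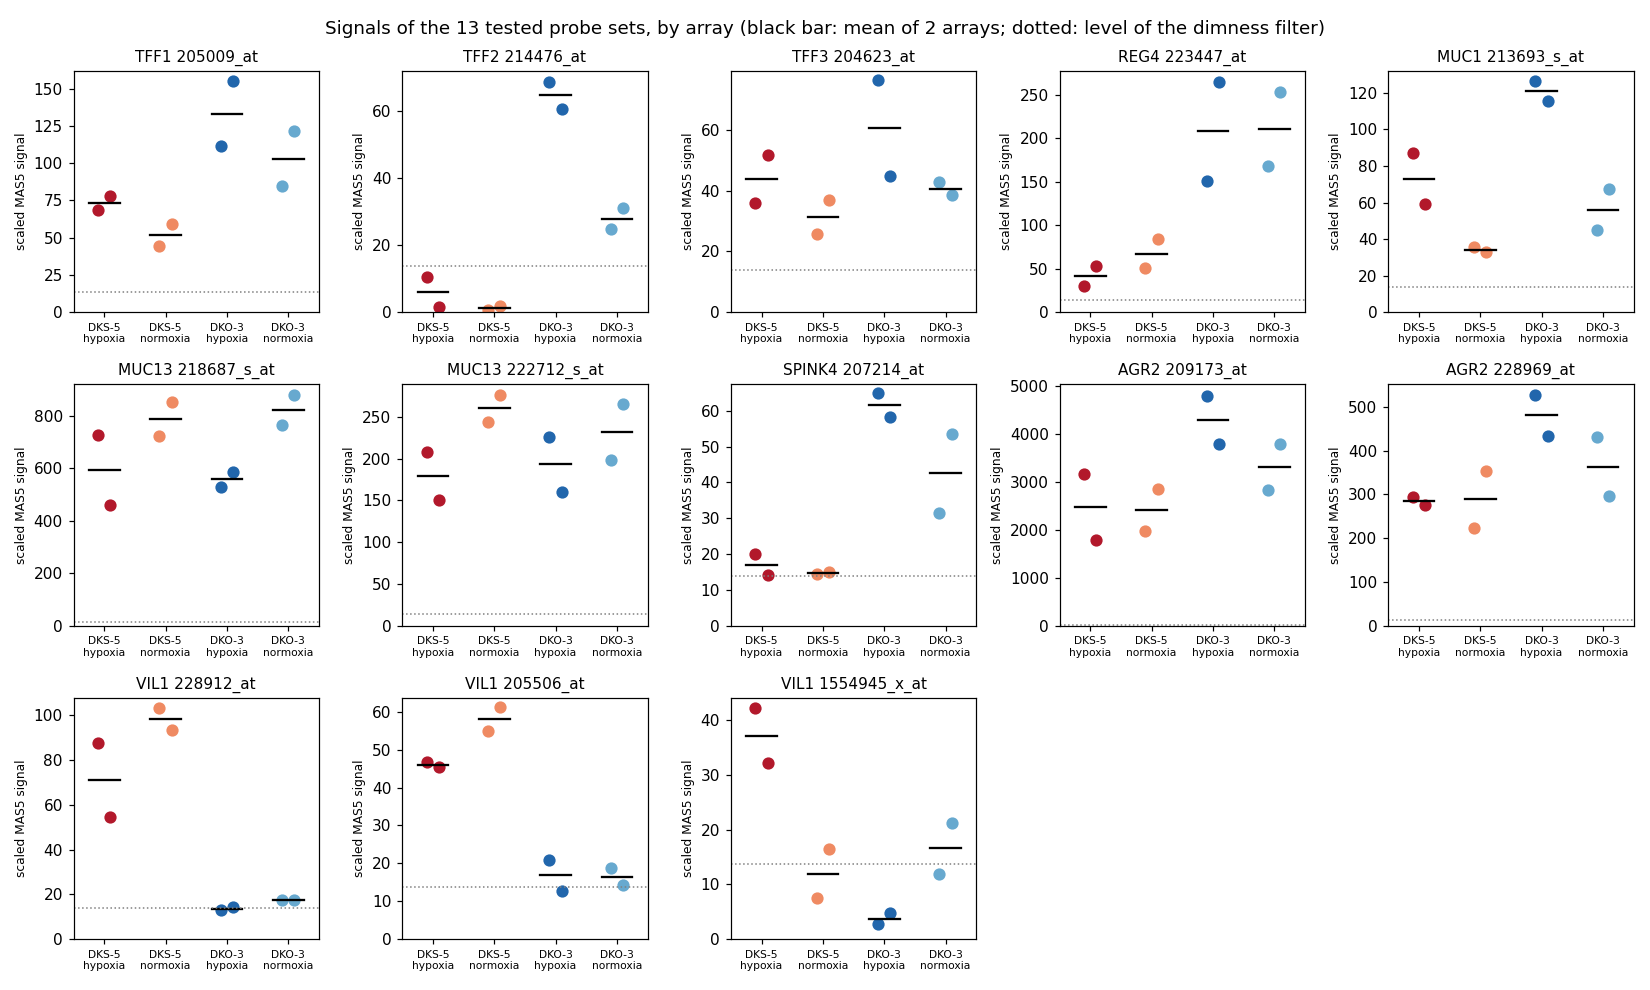
Scaled MAS5 signal (vertical axes, each from 0) of the 13 tested probe sets on the 8 arrays, by line and oxygen level, with points for arrays, bars for the mean of 2 arrays and a dotted line at the filter level of 13.8. TFF2 lies below the dotted line on all 4 DKS-5 arrays, REG4, SPINK4 and TFF1 are lower on every DKS-5 array than on every DKO-3 array, and VIL1 228912_at and 205506_at are higher on every DKS-5 array.

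Among the trefoil genes, TFF2, made in the stomach by mucous neck cells, differed most between the lines. TFF2 (probe set 214476_at) had signals of 10.5 and 1.52 in DKS-5 hypoxia, against 68.6 and 60.6 in DKO-3 hypoxia. In normoxia it stood at 0.542 and 1.72 in DKS-5, against 24.7 and 30.95 in DKO-3. All DKS-5 arrays thus lay below the filter level and all DKO-3 arrays above it, and the probe set was bright enough to be tested only through its DKO-3 arrays, so the differences that follow describe it and add no support to the counts. The difference was -1.90 ± 0.26 in hypoxia (adjusted p = 0.00122), -1.35 ± 0.26 in normoxia (adjusted p = 0.0172) and -1.63 ± 0.18 over both oxygen levels (adjusted p = 7.51e-05; limma, 2 arrays per group). With the RNA quality covariate the hypoxia value was -1.99 and did not pass (adjusted p = 0.0604), while that over both oxygen levels was -1.69 (adjusted p = 0.00703). The normoxia call ended without any 1 of the 4 normoxia arrays (adjusted p of up to 0.181).

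TFF1, a peptide of gastric surface mucous cells that many carcinomas express, was measured by 1 probe set. TFF1 (205009_at) had signals of 68.6 and 77.7 in DKS-5 hypoxia, against 111.5 and 155 in DKO-3 hypoxia, and of 44.3 and 59.2 in DKS-5 normoxia, against 84.5 and 122 in DKO-3 normoxia. No DKS-5 array reached the lowest DKO-3 array. The difference over both oxygen levels was -0.77 ± 0.19, or 1.70-fold lower (adjusted p = 0.0302), and neither oxygen level alone passed (hypoxia -0.73, adjusted p = 0.204; normoxia -0.81, adjusted p = 0.276). That call was not firm. It ended in 5 of 8 fits that left out 1 array, namely those without DKS-5 hypoxia replicate 1, DKS-5 normoxia replicate 1 or 2, DKO-3 hypoxia replicate 2 or DKO-3 normoxia replicate 2 (adjusted p of up to 0.159), and with the RNA quality covariate (-0.46, adjusted p = 0.495).

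TFF3, the trefoil peptide of intestinal goblet cells, did not pass in any comparison between the lines. TFF3 (204623_at) had signals of 35.8 and 51.7 in DKS-5 hypoxia, against 76.4 and 44.8 in DKO-3 hypoxia, and of 25.8 and 36.9 in DKS-5 normoxia, against 42.8 and 38.6 in DKO-3 normoxia. The groups overlapped in hypoxia but not in normoxia, where 20.5% of all probe sets were likewise lower without overlap. Its difference over both oxygen levels was -0.30 ± 0.20 (adjusted p = 0.443).

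In the RefSeq gene order TFF3, TFF2 and TFF1 lie next to each other, with an uncharacterised locus between TFF2 and TFF1, and TMPRSS3, a transmembrane serine protease gene, follows TFF1. TMPRSS3 (220177_s_at) had signals of 88.3 and 95.1 in DKS-5 hypoxia, against 313 and 281 in DKO-3 hypoxia, and of 62.8 and 86.4 in DKS-5 normoxia, against 167 and 215 in DKO-3 normoxia. It was 2.58-fold lower in DKS-5 over both oxygen levels (adjusted p = 0.000315), and was also called in hypoxia (-1.54 ± 0.26, adjusted p = 0.00476) and in normoxia (-1.19 ± 0.26, adjusted p = 0.0336). On the other side of the cluster the lipid transporter gene ABCG1 was at -0.58 (adjusted p = 0.131), and UBASH3A, beyond TMPRSS3, was too dim.

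REG4, a secreted C-type lectin-like protein found in enteroendocrine and goblet cells and in many gastrointestinal cancers, was lower in DKS-5 at both oxygen levels. REG4 (223447_at) had signals of 30.4 and 53.4 in DKS-5 hypoxia, against 150 and 265 in DKO-3 hypoxia. In normoxia the signals were 50.6 and 83.6 in DKS-5, against 168 and 253 in DKO-3. The highest DKS-5 array stayed below the lowest DKO-3 array. The difference was -1.93 ± 0.33 in hypoxia (adjusted p = 0.00616), -1.45 ± 0.33 in normoxia (adjusted p = 0.0494) and -1.69 ± 0.23 over both oxygen levels (3.22-fold lower, adjusted p = 0.00046). The normoxia call ended without any 1 of the 4 normoxia arrays (adjusted p of up to 0.49), and the hypoxia call without DKO-3 hypoxia replicate 2 (adjusted p = 0.0652). With the RNA quality covariate none of the 3 passed, at -1.17 in hypoxia (adjusted p = 0.355), -1.15 in normoxia (adjusted p = 0.121) and -1.16 over both oxygen levels (adjusted p = 0.0781). The other probe sets of REG4 were too dim, 1554436_a_at with signals of 3.32 to 8.54 in DKS-5 and 11.7 to 24.75 in DKO-3, and 238984_at with 2.53 to 9.46 in DKS-5 and 10.6 to 22.3 in DKO-3.

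SPINK4, a Kazal-type protease inhibitor secreted by goblet cells, lay near the filter level in DKS-5. SPINK4 (207214_at) had signals of 19.9 and 14.1 in DKS-5 hypoxia, against 64.9 and 58.4 in DKO-3 hypoxia, and of 14.5 and 14.98 in DKS-5 normoxia, against 31.4 and 53.6 in DKO-3 normoxia. The arrays of the lines did not overlap. SPINK4 was lower in DKS-5 in hypoxia (-1.24 ± 0.26, adjusted p = 0.0227) and over both oxygen levels (-1.07 ± 0.19, adjusted p = 0.00275), and its normoxia difference of -0.90 ± 0.26 did not pass (adjusted p = 0.15). The hypoxia call ended without DKS-5 hypoxia replicate 2 or either DKO-3 hypoxia array (adjusted p of up to 0.179). With the RNA quality covariate neither call remained (hypoxia -0.99, adjusted p = 0.4; both oxygen levels -0.89, adjusted p = 0.145).

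AGR2 was measured well above the filter level by both of its probe sets. The brighter AGR2 probe set (209173_at) had signals of 3153 and 1791 in DKS-5 hypoxia, against 4791 and 3787 in DKO-3 hypoxia, and of 1979 and 2845 in DKS-5 normoxia, against 2833 and 3782 in DKO-3 normoxia. In normoxia the lines overlapped narrowly. Over both oxygen levels it was 1.57-fold lower in DKS-5 (log2 difference -0.65 ± 0.18, adjusted p = 0.0433), a call that ended in 6 of 8 fits without 1 array (adjusted p of up to 0.21; it held only without DKS-5 hypoxia replicate 1 or DKS-5 normoxia replicate 2) and with the RNA quality covariate (-0.61, adjusted p = 0.362). In hypoxia alone AGR2 209173_at stood at -0.84 ± 0.25 (adjusted p = 0.105), and passed without DKS-5 hypoxia replicate 1 (-1.24, adjusted p = 0.0118). The dimmer AGR2 probe set (228969_at) stood at -0.52 ± 0.19 and did not pass (adjusted p = 0.141), with signals of 224 to 354 in DKS-5 and 295 to 526 in DKO-3.

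Of the mucins, none was called between the lines. MUC2, the gel-forming mucin of the colon, was too dim to judge (204673_at), with signals of 0.974 to 3.85 in DKS-5 and 1.15 to 12.9 in DKO-3, so no statement on its level can be made from these arrays. MUC1, a membrane mucin of most glandular epithelia, had 1 bright probe set (213693_s_at), with signals of 87.0 and 59.2 in DKS-5 hypoxia against 127 and 115 in DKO-3 hypoxia, and of 35.6 and 32.7 in DKS-5 normoxia against 44.9 and 67.2 in DKO-3 normoxia. In normoxia its DKS-5 arrays lay below its DKO-3 arrays, as did those of 20.5% of all probe sets tested. The difference of MUC1 over both oxygen levels was -0.57 ± 0.19 and did not pass (adjusted p = 0.103). The other MUC1 probe sets were too dim, 211695_x_at at 0.695 to 12.8 in DKS-5 and 1.67 to 18.98 in DKO-3, and 207847_s_at at 1.93 to 8.64 in DKS-5 and 1.21 to 10.7 in DKO-3. MUC13, a membrane mucin of the intestinal surface, had nearly the same level in the lines. Its brighter probe set (218687_s_at) averaged 691 ± 167 in DKS-5 and 689 ± 161 in DKO-3 (SD, 4 arrays each), a difference of -0.0024 ± 0.17, and the dimmer MUC13 probe set (222712_s_at) differed by 0.03 ± 0.19. These SEs leave room for differences either way.

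Villin was the member that ran opposite to the secretory products. The brightest VIL1 probe set (228912_at) had signals of 87.5 and 54.8 in DKS-5 hypoxia, against 12.8 and 14.4 in DKO-3 hypoxia. In normoxia the signals were 103 and 93.25 in DKS-5, against 17.4 and 17.55 in DKO-3. The DKO-3 arrays lay at the filter level, and the lines did not overlap. VIL1 228912_at was higher in DKS-5 by 1.53 ± 0.26 in hypoxia (adjusted p = 0.00568), 1.77 ± 0.26 in normoxia (adjusted p = 0.00246) and 1.65 ± 0.18 over both oxygen levels (3.14-fold, adjusted p = 6.72e-05). The normoxia call and that over both oxygen levels held in every fit without 1 array, whereas the hypoxia call ended without DKO-3 hypoxia replicate 1 (adjusted p = 0.0682) and with the RNA quality covariate (1.28, adjusted p = 0.233).

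The VIL1 probe set 205506_at had signals of 46.65 and 45.3 in DKS-5 hypoxia, against 20.8 and 12.8 in DKO-3 hypoxia, and of 55.0 and 61.3 in DKS-5 normoxia, against 18.8 and 14.2 in DKO-3 normoxia. It was called higher in normoxia (1.19 ± 0.25, adjusted p = 0.029) and over both oxygen levels (1.06 ± 0.18, adjusted p = 0.00199). In hypoxia it stood at 0.93 (adjusted p = 0.0704), and passed after quantile normalization (1.03, adjusted p = 0.0411) and with the replicate block (adjusted p = 0.0459). It did not pass in hypoxia with the RNA quality covariate, and its hypoxia value ran from 0.45 to 1.44 over the alternatives. The normoxia call ended without any 1 of the 4 normoxia arrays (adjusted p of up to 0.286) and with the RNA quality covariate (1.14, adjusted p = 0.0724), as did the call over both oxygen levels with the covariate (0.98, adjusted p = 0.0942). The VIL1 probe set 1554945_x_at, whose suffix marks probes that may also match other transcripts, behaved differently. Its mean over the 8 arrays, 15.04, lay just above the filter level and that over the 4 DKO-3 arrays, 9.20, below it, so that it was tested only through DKS-5. It had 42.2 and 32.2 in DKS-5 hypoxia, against 2.75 and 4.72 in DKO-3 hypoxia (1.43 ± 0.26, adjusted p = 0.00986), but 7.46 and 16.5 in DKS-5 normoxia, against 12.0 and 21.1 in DKO-3 normoxia (-0.22, adjusted p = 0.936). That hypoxia call ended without DKO-3 hypoxia replicate 1 (adjusted p = 0.116) and with the RNA quality covariate (1.70, adjusted p = 0.1). The VIL1 probe set 1554943_at was too dim, with signals of 14.2 to 24.5 in DKS-5 and 3.82 to 13.04 in DKO-3.

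**Figure D2:**
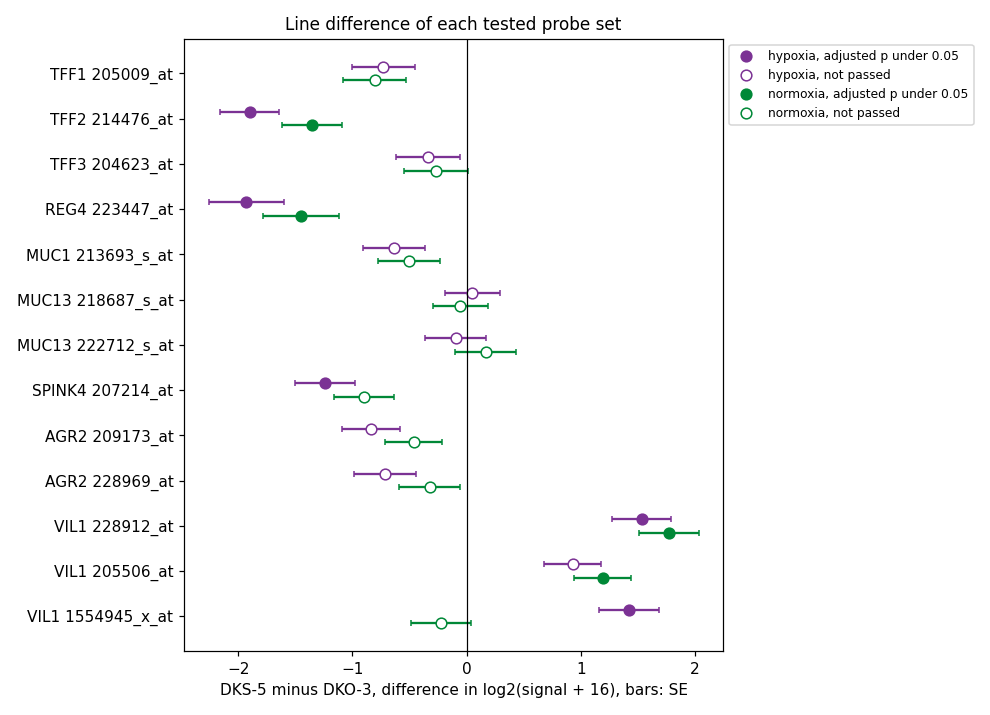
DKS-5 minus DKO-3 difference in log2(signal + 16) of the 13 tested probe sets (horizontal axis, bars for the SE) in hypoxia and in normoxia, with filled points for an adjusted p under 0.05. TFF2 and REG4 lie between -1.93 and -1.35, VIL1 228912_at lies at 1.53 and 1.77, and both MUC13 probe sets lie near 0.

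The genes whose pattern over the 8 arrays was most like that of VIL1 228912_at, the member with the smallest p over both oxygen levels, were sought by the root mean square difference between log2 values centred on each gene's own mean. They were GNAL (0.201), KLF12 (0.217), LOC105379426 (0.222), CHRM3 (0.23) and PCOLCE2 (0.236). CHRM3, a muscarinic acetylcholine receptor gene, had signals of 143 to 260 in DKS-5 and 25.4 to 67.8 in DKO-3. KLF12, a zinc finger transcription factor gene, had 261 to 416 in DKS-5 and 123 to 170 in DKO-3. None of the 5 showed overlap between the lines, which the choice by likeness to VIL1 228912_at favours by itself.

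The second question was whether 12 h of low oxygen changed these genes. No member probe set passed the threshold in either line or over both lines by limma. At an unadjusted p under 0.05 there were 2 of 13 in DKS-5, 4 in DKO-3 and 3 over both lines, where 5.35%, 8.07% and 11.1% of all probe sets tested stood at that level. The adjusted threshold was passed by 0.266% of all probe sets in DKS-5, 0.177% in DKO-3 and 0.61% over both lines. The same arrays showed the response of known hypoxia genes. Of 14 such genes tested, 12 rose in DKS-5 and 9 in DKO-3, with NDRG1, a hypoxia-induced differentiation gene, at 3.82 in DKS-5 and 2.34 in DKO-3.

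MUC1 came nearest to a call. MUC1 213693_s_at had signals of 87.0 and 59.2 in DKS-5 hypoxia, against 35.6 and 32.7 in DKS-5 normoxia, and of 127 and 115 in DKO-3 hypoxia, against 44.9 and 67.2 in DKO-3 normoxia. Within each line the hypoxia arrays lay above the normoxia arrays, as did 17.3% of all probe sets in DKS-5 and 22.7% of them in DKO-3. MUC1 differed by 0.81 ± 0.27 in DKS-5 (adjusted p = 0.745), 0.94 ± 0.27 in DKO-3 (adjusted p = 0.347) and 0.88 ± 0.19 over both lines (1.84-fold, adjusted p = 0.055). Over both lines it passed with 1 probe set per gene (adjusted p = 0.0269) and with the replicate block (adjusted p = 0.0229). It did not pass with another scaling or pseudocount, without the filter or with the RNA quality covariate. Its value over both lines ran from 0.55 to 1.09 in the alternatives.

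TFF2 had 68.6 and 60.6 in DKO-3 hypoxia, against 24.7 and 30.95 in DKO-3 normoxia, a difference of 0.88 ± 0.26 without overlap that did not pass (adjusted p = 0.382). In DKS-5 it was below the filter level at both oxygen levels. For the other trefoil genes the hypoxia differences were 0.40 for TFF1 and 0.33 for TFF3 in DKS-5 and 0.33 and 0.40 in DKO-3, with an SE of 0.27 for TFF1 and 0.28 for TFF3. MUC13 218687_s_at stood at -0.44 in DKS-5 and -0.54 in DKO-3, and over both lines at -0.49 ± 0.17 (adjusted p = 0.293). Without DKS-5 hypoxia replicate 1 that last value was -0.65 and passed (adjusted p = 0.041). REG4 was at -0.52 ± 0.33 in DKS-5 and -0.04 ± 0.33 in DKO-3, and AGR2 209173_at at 0.0023 ± 0.25 in DKS-5 and 0.38 ± 0.25 in DKO-3. SPINK4 stood at 0.09 ± 0.26 in DKS-5 and 0.43 ± 0.26 in DKO-3, and VIL1 228912_at at -0.42 ± 0.26 in DKS-5 and -0.18 ± 0.26 in DKO-3. With SEs of 0.24 to 0.33 in 1 line, these values leave room for changes either way. In the fit with the ACTB ratio as a covariate 0 member probe sets passed for hypoxia in either line by limma.

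**Figure D3:**
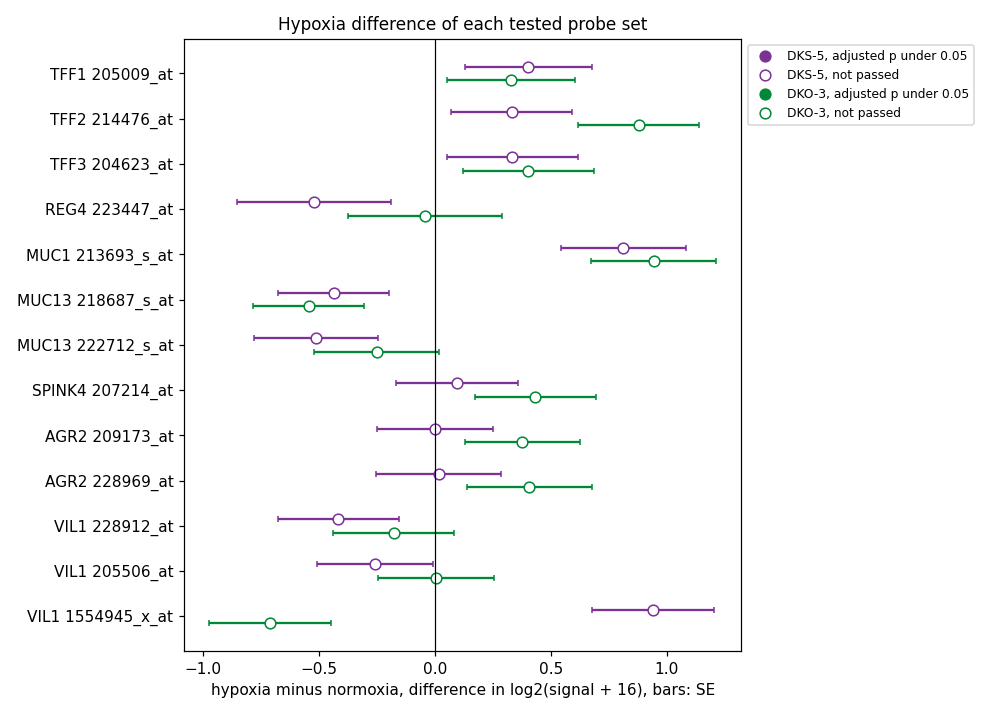
Hypoxia minus normoxia difference in log2(signal + 16) of the 13 tested probe sets (horizontal axis, bars for the SE) in DKS-5 and in DKO-3, with open points because none had an adjusted p under 0.05. MUC1 213693_s_at lies at 0.81 and 0.94, TFF2 at 0.88 in DKO-3, and VIL1 1554945_x_at on opposite sides of 0.

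The third question was whether the lines differed in their response to hypoxia. No member and none of the 32768 probe sets passed by limma, a share of 0%, and at an unadjusted p under 0.05 there was 1 member probe set of 13, where 2.25% of all probe sets stood at that level. That member was VIL1 1554945_x_at, whose response was larger in DKS-5 by 1.65 ± 0.37 (limma, adjusted p = 1). The better measured VIL1 probe sets had differences of -0.24 ± 0.37 (228912_at) and -0.26 ± 0.35 (205506_at). TFF2 stood at -0.55 ± 0.37 and REG4 at -0.48 ± 0.47, and the remaining 8 probe sets lay between -0.39 and 0.11.

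Other genes of the secretory programme were taken from lists chosen with earlier results of these data known, each gene read from its brightest probe set. Of 25 other goblet and secretory cell products, 15 were too dim and 10 were tested. Over both oxygen levels 4 of these were lower in DKS-5, 0 higher and 6 did not pass, with a median of -0.57 beside -0.01 over all 12735 genes, of which 5.27% were called lower and 2.28% higher. The 4 were TMPRSS3, the secreted phospholipase gene PLA2G2A (-1.03 ± 0.23, adjusted p = 0.0151), the goblet cell lectin gene ITLN1 (-0.98 ± 0.18, adjusted p = 0.00439) and SYTL2, an effector of granule transport (-0.72 ± 0.15, adjusted p = 0.0125). TMPRSS3 is the TFF1 neighbour described above, so its call here is the same result and not a further one. ITLN1 had signals of 0.972 to 10.4 in DKS-5 and 18.2 to 35.2 in DKO-3, so it was tested only through DKO-3, and 3 genes were lower without it. In hypoxia alone 2 of the 10 were called lower (PLA2G2A and TMPRSS3) and in normoxia 1 (TMPRSS3), where 1.96% and 1.27% of all genes were called lower and 0.879% and 0.518% higher. The gel-forming mucin gene MUC5AC, a neighbour of MUC2 in the genome, was bright in both lines, with 2500 to 3356 in DKS-5 and 1768 to 3111 in DKO-3, and did not pass (0.32, adjusted p = 0.284). The gastric mucin gene MUC6 had 101 to 266 in DKS-5 and 205 to 687 in DKO-3 and did not pass (-1.18 ± 0.34, adjusted p = 0.0601). CLCA1, ZG16, RETNLB, OLFM4 and LYZ, markers of mature goblet, crypt base or Paneth cells, were too dim.

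Membrane-bound mucins held 4 tested genes, MUC3A, MUC4, MUC17 and MUC20, and none passed, with MUC20 at -0.56 (adjusted p = 0.148). Of 17 enzymes that add and extend the O-linked sugars of mucins, 3 were lower in DKS-5 over both oxygen levels (5.27% of all genes were), 0 higher and 14 did not pass. At a single oxygen level 1 of the 17 was called, GCNT1 in normoxia, where 1.27% of all genes were called lower. The 3 were GCNT1, which branches the core sugar chain (-0.999 ± 0.17, adjusted p = 0.00243), the Lewis antigen fucosyltransferase gene FUT3 (-0.82 ± 0.18, adjusted p = 0.014) and the chain-starting transferase gene GALNT5 (-0.62 ± 0.17, adjusted p = 0.0413). GCNT1 had signals of 185 to 263 in DKS-5 and 369 to 464 in DKO-3. The median of the 17 was -0.06.

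Among 16 tested regulators of secretory fate and Notch signalling, FOXA2 was higher in DKS-5 and XBP1 lower, and 14 did not pass over both oxygen levels. Of all genes, 2.28% were called higher and 5.27% lower in that comparison. FOXA2, a forkhead factor of gut endoderm, had signals of 159 and 132 in DKS-5 hypoxia, against 17.7 and 13.9 in DKO-3 hypoxia, and of 131 and 132 in DKS-5 normoxia, against 4.18 and 7.42 in DKO-3 normoxia. Its difference was 2.55 ± 0.18 over both oxygen levels (adjusted p = 6.36e-07). It was called higher at each oxygen level, as were 0.879% of all genes in hypoxia and 0.518% in normoxia. Its mean over the DKO-3 arrays, 10.3, lay below the filter level, so FOXA2 was tested only through DKS-5. XBP1, a driver of secretory capacity, stood at 167 to 232 in DKS-5 and 277 to 371 in DKO-3 (-0.68 ± 0.17, adjusted p = 0.0306). ATOH1, which commits cells to the secretory lineage, was too dim, and SPDEF, which acts in goblet cell maturation, did not pass (0.18 ± 0.20, adjusted p = 0.674).

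No gene among 16 disulfide isomerases and folding factors of the secretory pathway passed, with a median of 0.08 over both oxygen levels. Of 12 tested brush border and absorptive genes besides VIL1, ESPN, another actin-bundling protein of microvilli, was higher in DKS-5 (0.76 ± 0.19, adjusted p = 0.0298) and 11 did not pass. Of all genes, 2.28% were called higher. ESPN had signals of 17.6 to 36.4 in DKS-5 and 4.09 to 14.6 in DKO-3, a mean of 9.02 below the filter level, so it too was tested only through DKS-5. Neither oxygen level alone gave a brush border call (ESPN, adjusted p = 0.387 in hypoxia and 0.104 in normoxia). Beside 5.27% of all genes called lower over both oxygen levels, 2 of 8 tested colon epithelium markers were lower in DKS-5. These were KRT20, the keratin of differentiated intestinal epithelium, at -4.01 ± 0.19 (adjusted p = 2.18e-08; 6.20 to 15.5 in DKS-5 and 301 to 445 in DKO-3), and KRT19 at -0.96 ± 0.17 (adjusted p = 0.00364). KRT20 was tested only through DKO-3, its mean over the DKS-5 arrays being 9.55, and 1 of the 8 markers was lower without it. Enteroendocrine markers were mostly too dim (9 of 13 on the array, CHGA, CHGB and SYP among them). Their summed signal was 788 to 1158 in DKS-5 and 977 to 1205 in DKO-3. Of 4 tested, the prohormone-processing gene CPE was lower (-0.87 ± 0.18, adjusted p = 0.00859), as were 5.27% of all genes. In hypoxia against normoxia no gene of these lists passed in DKO-3. In DKS-5 KRT19 alone was called higher (1.28 ± 0.24, adjusted p = 0.0434), where 0.424% of genes were called higher. In DKO-3 KRT19 stood at a similar 1.12 ± 0.24 and did not pass (limma, adjusted p = 0.132). A rise particular to DKS-5 is therefore not shown.

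**Figure D4:**
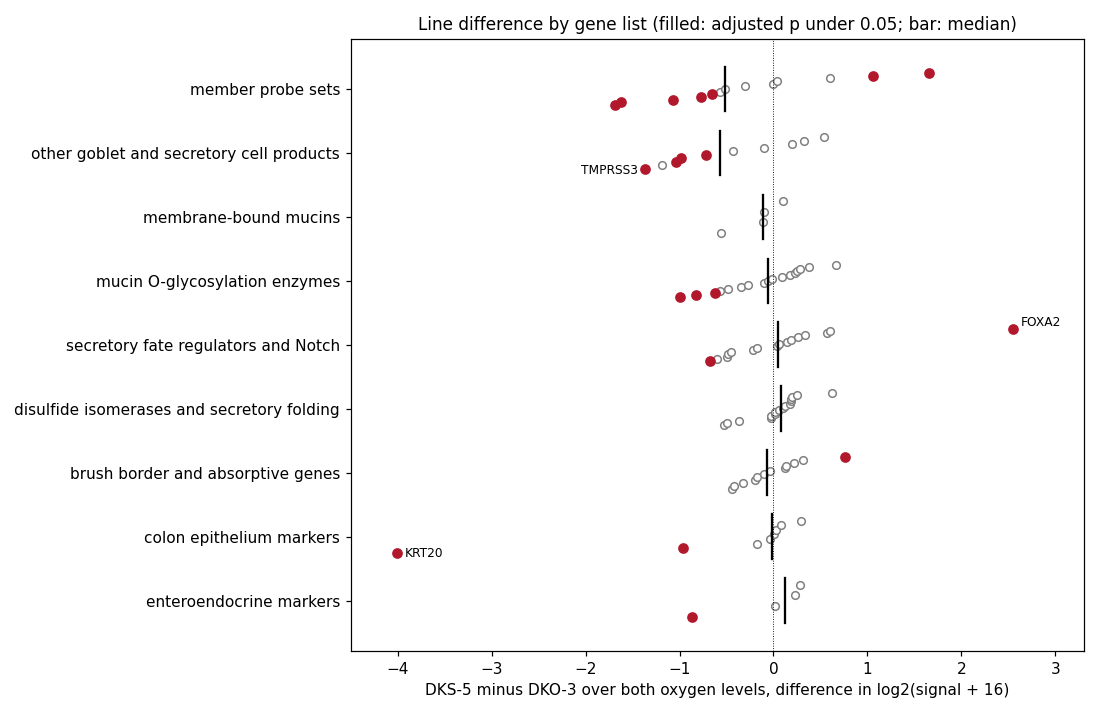
DKS-5 minus DKO-3 difference over both oxygen levels in log2(signal + 16) for the member probe sets and for the tested genes of 8 lists (filled points for an adjusted p under 0.05, bars for medians). Secretory products lie mostly below 0, with a median of -0.57 for the list of other products, and FOXA2 at 2.55 and KRT20 at -4.01 lie farthest out. FOXA2 and KRT20 were each tested only through the line where they were brighter.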

How the data were processed

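Total RNA of 8 samples was amplified and biotin-labelled with NuGEN Ovation kits, per the labels' protocols, and hybridised to 1 array each. The deposited intensity values are linear MAS5 signals per probe set, as the submitters' processing notes name the tool without a version or a target intensity. Because the arrays' trimmed means differed by over 10%, signals were scaled to a common 2% trimmed mean, and log2(signal + 16) was taken. Of 54675 probe sets, 62 controls were left out, and the annotation gave 1 symbol for 41091, several for 1801 and none for 11721. Tests were two-sided and used limma 3.58.1 in R 4.3.3, with a mean for each of the 4 groups, 7 contrasts and a trended prior (4 residual and 10.8 prior degrees of freedom). The fit was checked on simulated data and ran per probe set, since all probe sets of a gene are reported. Every member probe set is named, dim ones by range. Of other lists, genes past the threshold are named, at most the 4 with the smallest p in a comparison, and further genes named there were chosen after their values were seen. The members and lists were chosen with earlier results of these data known. Alternatives changed the scaling, the pseudocount, the filter, the choice of probe set, the arrays fitted, a covariate for RNA quality and a replicate block. No K-ras expression value is used here.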

Additional observations from a re-analysis of the deposited data

Results flagged for a closer look

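The response to hypoxia of VIL1 1554945_x_at went opposite ways in the lines. Its signals were 42.2 and 32.2 in DKS-5 hypoxia, against 7.46 and 16.5 in DKS-5 normoxia, and 2.75 and 4.72 in DKO-3 hypoxia, against 12.0 and 21.1 in DKO-3 normoxia, so that both hypoxia arrays lay above normoxia in DKS-5 and both lay below it in DKO-3. The difference between the responses was 1.65 ± 0.37 on the log2 scale and did not pass (limma, adjusted p = 1). The other tested VIL1 probe sets had differences of -0.24 and -0.26. Which of the probe sets follows villin mRNA was not tested.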

How the results depend on the processing

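Of 91 results (13 probe sets in 7 comparisons), 16 were called. Over the alternatives these kept direction and threshold 201 times, kept direction but lost the threshold 54 times and reversed 0 times. The 16 include calls of TFF2 and VIL1 1554945_x_at, which are set aside above and add no support here. TFF2 is also in the counts of 7, 4 and 5 below, and VIL1 1554945_x_at in that of 5. Among results not called, 21 changed sign at least once, with no adjusted p under 0.05 by limma. The number of member probe sets called for the lines over both oxygen levels was 7, and 2 with the RNA quality covariate (VIL1 228912_at and TFF2). In normoxia it was 4, and 2 with a pseudocount of 1, 1 with no filter on dim probe sets, 2 with the RNA quality covariate and 1 to 4 leaving out 1 array. In hypoxia it was 5, and 9 with no array scaling (a setting in which 5100 of 32768 probe sets were called lower and 111 higher, against 494 and 188), 3 with a pseudocount of 1, 1 with no filter, 0 with the RNA quality covariate and 2 to 5 leaving out 1 array. For hypoxia over both lines it was 0, and 1 with 1 probe set per gene (MUC1), 1 with the replicate block (MUC1) and 0 to 1 leaving out 1 array. With the replicate block the lines differed in 4 member probe sets in normoxia, 6 in hypoxia and 7 over both. Among all probe sets the block raised the number called lower in DKS-5 from 262 to 415 in normoxia and from 494 to 848 in hypoxia. Same-numbered samples deviated together only in part (r of -0.0559 to 0.352), so the numbers were not taken to pair them. The largest r were those between the lines at the same oxygen level (0.352 in hypoxia, 0.214 in normoxia). Whether same-numbered samples were processed together was not tested. With a pseudocount of 1 TFF2 did not pass the filter and was not tested. The cause of these changes was not tested, other than that omitting the filter adds probe sets to the adjustment and leaving out arrays removes samples. Counts for the other gene lists were not recomputed with the RNA quality covariate.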
